A study of Mus musculus with 12 samples.

Results

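The aminoacyl-tRNA synthetase genes encode the enzymes that join each amino acid to its transfer RNA, and they were followed across sorted thymic T cells of wild-type and condensin II mutant mice. The members were 36 gene symbols looked up in the first column of the deposited non-normalized array table, where 34 of them were found among 18138 symbols. All 20 listed cytosolic genes were present, and 14 of 16 mitochondrial genes, whose names end in 2. Cars2 and Tars2 were not matched by symbol or synonym. Of the 34 members, 29 were detected on at least 3 arrays and were tested, 18 cytosolic and 11 mitochondrial. Cars, Hars2, Nars2 and Yars2 were detected on no array, and Yars was detected on 1 array, so these 5 genes were not tested.

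The 12 samples were thymus cells of C57BL6/J mice 8 to 12 weeks old, of both sexes in equal mixture per the labels, sorted as CD4+CD8+ cells of low forward scatter and divided by CD71, the transferrin receptor that growing and dividing cells display. There were 4 groups with 3 arrays each. Wild-type CD71-negative and wild-type CD71-positive cells came from Caph2+/+ mice. The mutant groups, again CD71-negative and CD71-positive, came from mice whose genotype is labelled Caph2(I15N) and written Caph2nes/nes in the titles, a missense change in Ncaph2, a subunit of the condensin II complex that compacts chromosomes. These labels name no Cre or transgene, and they do not state in words that the mutation is in the germline. Separate animals or pools are not specified for the 3 samples in each group, so a p-value here reflects the spread between these samples alone, and that spread may be technical.

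Each synthetase reads the identity of a transfer RNA and charges it with the matching amino acid, so these enzymes set the supply of substrate for the ribosome. Most amino acids have a cytosolic enzyme and a separate mitochondrial enzyme, both encoded in the nucleus. Glycine and lysine are exceptions, since Gars and Kars each serve both compartments, and Eprs joins the enzymes for glutamate and proline in a single cytosolic chain. Several cytosolic enzymes are held in the multi-synthetase complex by the scaffold proteins Aimp1, Aimp2 and Eef1e1. In T cells, cytosolic synthetase genes are among those that growth signals through Myc and the amino acid response through Atf4 are known to induce.

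Levels are given as log2 of background-corrected, quantile-normalized signal, and differences between groups are in the same log2 units. Members that no array detected had levels of 5.33 to 5.43, so a level in that range is one at background, and a change of a dim gene is understated on this scale. With a background taken from dim genes instead, an alternative chosen after seeing the data, dim members differed more between subsets, for example Farsa by -0.73 in each genotype, Rars2 by 0.52 and 0.64 and Eprs by 0.66 in mutants, each in the direction given below. Levels of different genes come from different probes and are not set against each other. Mean signal ranged from 95.1 to 203 per array, and 5893 to 7415 genes were detected on an array. Tfrc, which encodes CD71, was higher by 1.15 ± 0.28 (SE, limma adjusted p = 0.014) in CD71-positive cells of wild type and by 1.30 ± 0.28 (adjusted p = 0.0068) in those of mutants. Among 13 double-positive thymocyte markers, 12 were detected, and Cd8a was detected on no array although all cells were sorted for CD8. With 3 arrays per group, precision is limited throughout, and in bulk samples fewer cells of a type and less RNA per cell cannot be told apart.

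CD71-positive cells of wild-type mice had higher RNA levels of 6 cytosolic synthetase genes than CD71-negative cells, led by Vars for valine, Rars for arginine and Dars for aspartate, at 3.16-fold, 1.76-fold and 1.70-fold. Farsb, Aars and Gars followed at 1.45-fold to 1.59-fold. A single cytosolic gene, Farsa, fell. By limma with Benjamini-Hochberg adjustment over all 8247 tested genes, 6 of 18 tested cytosolic genes were called higher and 1 lower at an adjusted p under 0.05, where 12% of all tested genes were called higher and 13.1% lower. Over the 20 cytosolic genes in the table the median difference was 0.08, beside -0.01 for all tested genes. Cars and Yars, which were not tested, are among the 20. Of the 20, 16 lay above 0, beside 3776 of all 8247 tested genes. The heat map of all members shows the cytosolic rises as a block of high values in CD71-positive arrays.

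**Figure D1:**
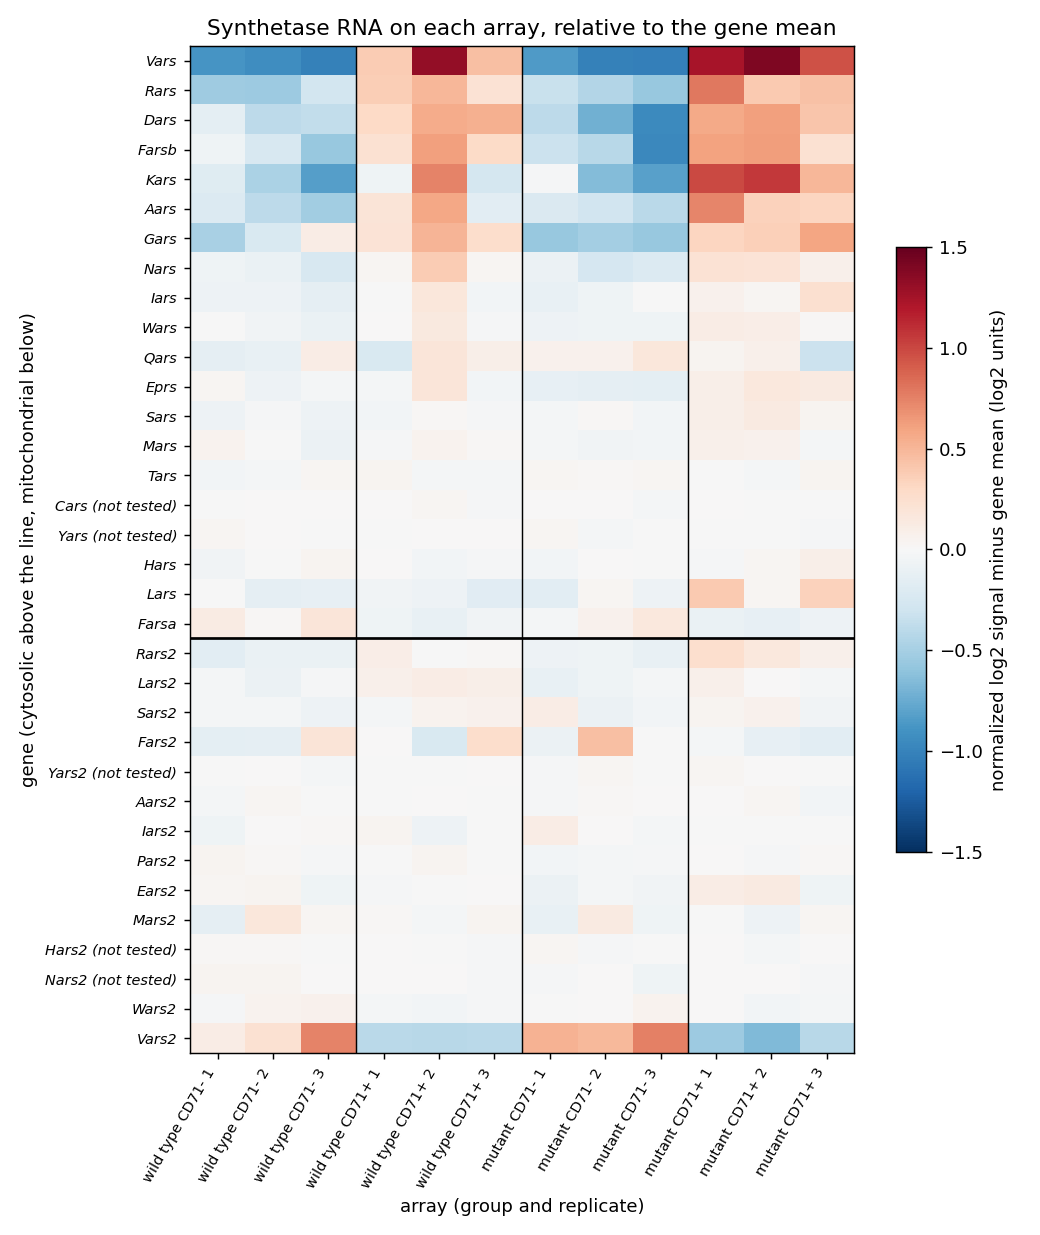
Normalized log2 signal of the 34 synthetase genes on each of the 12 arrays, shown as the difference from the gene's mean over the arrays (colour scale in log2 units), with arrays in columns by group and replicate and the cytosolic genes above the horizontal line. Vars, Rars, Dars, Farsb, Kars, Aars and Gars are mostly blue in CD71-negative and mostly red in CD71-positive arrays, Vars2 runs the other way, and most mitochondrial rows are pale.

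Vars encodes the cytosolic valine enzyme. Its level was 5.64, 5.60 and 5.51 on the wild-type CD71-negative arrays against 6.91, 7.84 and 6.99 on the CD71-positive arrays. In mutants it was 5.68, 5.52 and 5.51 against 7.76, 7.93 and 7.48. The subsets did not overlap in either genotype, and Vars was detected on 2 of 3 arrays in each CD71-negative group. Its level there was close to the 5.33 to 5.43 of members that no array detected. The wild-type difference was 1.66 ± 0.22 (adjusted p = 0.00059) and the mutant difference was 2.15 ± 0.22 (4.45-fold, adjusted p = 0.00012), the largest rise of any member in either genotype.

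Rars and Dars encode enzymes of the multi-synthetase complex. Rars was at 5.89, 5.88 and 6.14 in wild-type CD71-negative cells and at 6.79, 6.92 and 6.64 in CD71-positive cells, and at 6.09, 5.98 and 5.86 against 7.21, 6.82 and 6.86 in mutants. All CD71-positive arrays lay above all CD71-negative ones, with a wild-type difference of 0.81 ± 0.12 (adjusted p = 0.0013) and a mutant difference of 0.99 ± 0.12 (adjusted p = 0.00037). Dars was at 7.84, 7.60 and 7.62 against 8.29, 8.55 and 8.52 in wild type, and at 7.60, 7.26 and 7.03 against 8.56, 8.60 and 8.40 in mutants. The Dars subsets did not overlap either, and the mutant CD71-negative arrays included the lowest Dars values of the study. Dars differed by 0.77 ± 0.14 (adjusted p = 0.0033) in wild-type cells and by 1.22 ± 0.14 (adjusted p = 0.0002) in mutant cells.

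Farsb encodes the beta subunit of the cytosolic phenylalanine enzyme. It was at 8.50, 8.31 and 7.99 against 8.79, 9.17 and 8.85 in wild type, and at 8.24, 8.14 and 7.59 against 9.16, 9.18 and 8.79 in mutants. The subsets were separate in both genotypes, with differences of 0.67 ± 0.20 (adjusted p = 0.039) and 1.05 ± 0.20 (adjusted p = 0.004). Farsa, which encodes the alpha subunit of the same enzyme, went the other way. Its level was 5.68, 5.57 and 5.73 in wild-type CD71-negative cells against 5.49, 5.44 and 5.50 in CD71-positive cells, and 5.52, 5.62 and 5.70 against 5.45, 5.43 and 5.47 in mutants. CD71-positive arrays were the lower ones without overlap, at -0.18 ± 0.05 (adjusted p = 0.03) and -0.16 ± 0.05 (adjusted p = 0.043), and Farsa was detected on 2 of 3 arrays of each CD71-positive group. The file's symbol Farsa is also an older name of Farsb in RefSeq, so which subunit that entry measures was not tested.

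Gars encodes the glycine enzyme and Aars the cytosolic alanine enzyme. Gars was at 9.95, 10.21 and 10.55 against 10.65, 10.95 and 10.71 in wild type, and at 9.87, 9.93 and 9.87 against 10.76, 10.80 and 11.03 in mutants. The third wild-type CD71-negative array came closest to the CD71-positive range without entering it, and the differences were 0.53 ± 0.14 (adjusted p = 0.024) and 0.97 ± 0.14 (adjusted p = 0.00087). Aars was at 6.03, 5.85 and 5.72 against 6.44, 6.82 and 6.08 in wild type, and at 6.03, 5.96 and 5.84 against 6.97, 6.58 and 6.57 in mutants. The Aars subsets were separated by a narrow margin in wild type and by a wider one in mutants, with differences of 0.58 ± 0.18 (adjusted p = 0.045) and 0.77 ± 0.18 (adjusted p = 0.012).

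Kars, for lysine, is a member of the multi-synthetase complex. It was at 6.39, 6.09 and 5.75 against 6.51, 7.32 and 6.32 in wild type, and at 6.56, 5.92 and 5.76 against 7.56, 7.63 and 7.07 in mutants. The wild-type subsets overlapped, the mutant subsets did not, and CD71-positive cells of mutants had the higher level at 1.34 ± 0.31 (2.53-fold, adjusted p = 0.011). The wild-type difference of 0.63 ± 0.31 did not pass (adjusted p = 0.18). The plot of levels by array shows these genes beside the members that went against their class.

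**Figure D2:**
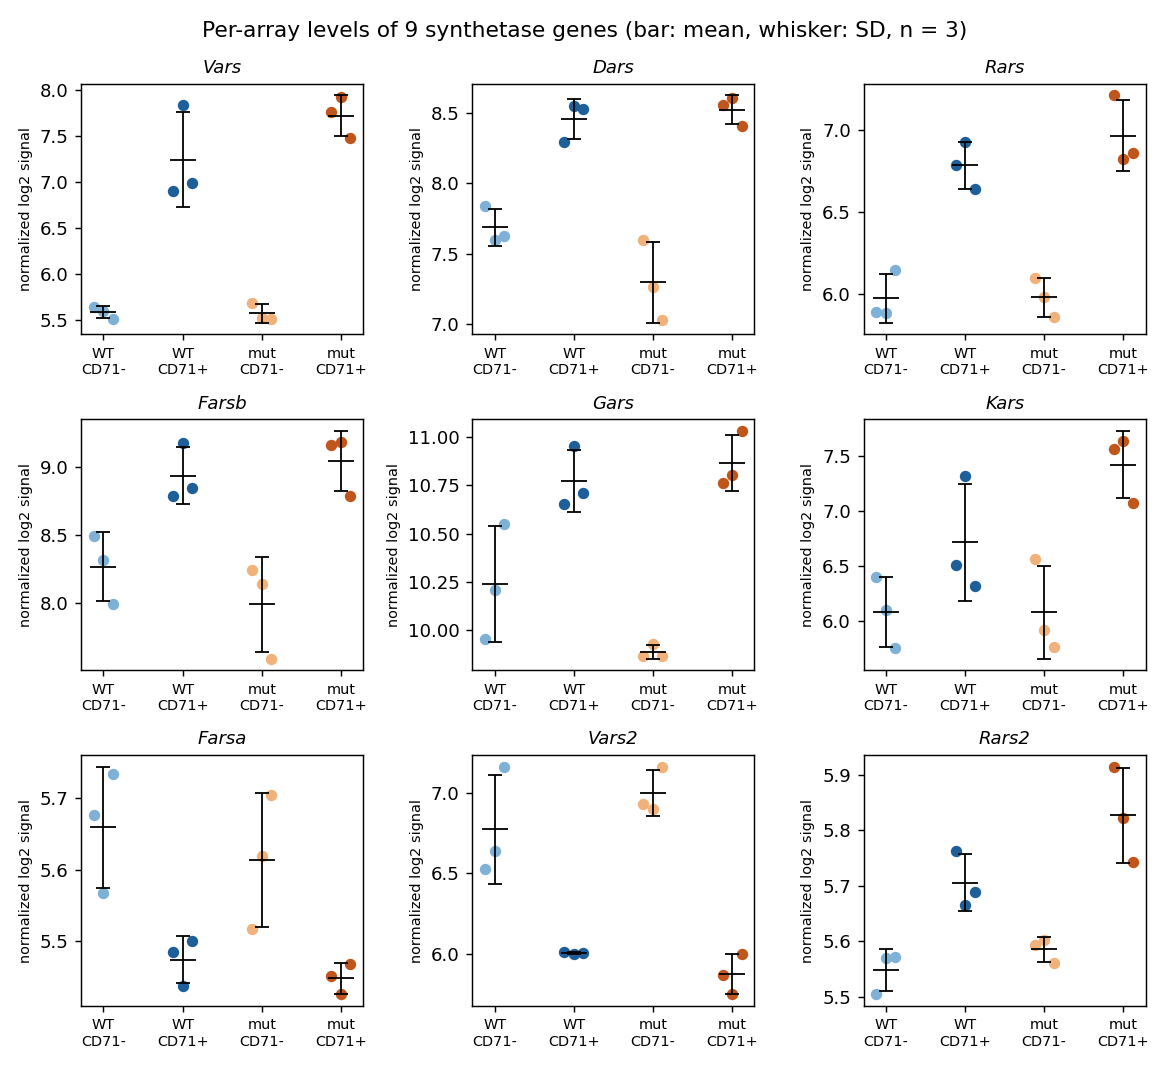
Normalized log2 signal of 9 synthetase genes on each array (points), by group, with the group mean (bar) and SD (whisker, n = 3), each panel with its own axis, which does not start at 0. Vars, Dars, Rars, Farsb and Gars have every CD71-positive array above every CD71-negative array in both genotypes, Kars in mutants, and Farsa and Vars2 have the reverse order.

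In mutants the same comparison called 12 of 18 tested cytosolic genes higher and Farsa lower, where 14.5% of all tested genes were called higher and 14.3% lower. The median over the 20 cytosolic genes was 0.22, beside -0.01 for all tested genes. The 6 genes called higher in wild type were all called higher in mutants. The other 6 were Kars, Nars for asparagine at 0.35 ± 0.10 (adjusted p = 0.024), Lars for leucine at 0.32 ± 0.09 (adjusted p = 0.027), Eprs at 0.26 ± 0.06 (adjusted p = 0.0067), Wars for tryptophan at 0.14 ± 0.05 (adjusted p = 0.046) and Sars for serine at 0.11 ± 0.03 (adjusted p = 0.035). The file's symbol Lars is also an older name of 4930503L19Rik in RefSeq, and which transcript that entry measures was not tested. In wild type Nars, Lars, Eprs, Wars and Sars differed by 0.28, -0.01, 0.06, 0.10 and 0.04, and none of the 5 passed. Hars, Iars, Mars, Qars and Tars were tested and passed in neither genotype, with wild-type differences between -0.01 (Hars) and 0.14 (Iars) and mutant differences between -0.17 (Qars) and 0.17 (Iars).

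Eprs was at 5.77, 5.66 and 5.71 against 5.71, 5.92 and 5.70 in wild type and at 5.61, 5.61 and 5.60 against 5.83, 5.90 and 5.88 in mutants. The wild-type arrays overlapped and the mutant arrays were clearly apart. Wars, which interferon is known to induce, was at 5.58, 5.53 and 5.48 against 5.59, 5.73 and 5.56 in wild type and at 5.50, 5.51 and 5.52 against 5.69, 5.68 and 5.59 in mutants. Its levels lay near background in all 4 groups, with CD71-positive mutant arrays above the CD71-negative ones.

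Of the 13 cytosolic genes called in either genotype, 12 had the larger difference in mutants, and the exception was Farsa. All 13 were called in mutants, and 6 of them in mutants alone. Picking genes by these calls favours a larger mutant difference, so the count of 12 is no evidence for one. The difference between the genotypes in the CD71 effect was itself tested and called for 0 of 29 synthetase genes by limma (smallest adjusted p = 0.83), where 0.0121% of all tested genes were called. At an unadjusted p under 0.05 there were 3, namely Lars at 0.33 ± 0.13, Eprs at 0.20 ± 0.08 and Dars at 0.46 ± 0.20. A larger CD71 effect in mutants was not established for any synthetase gene.

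**Figure D3:**
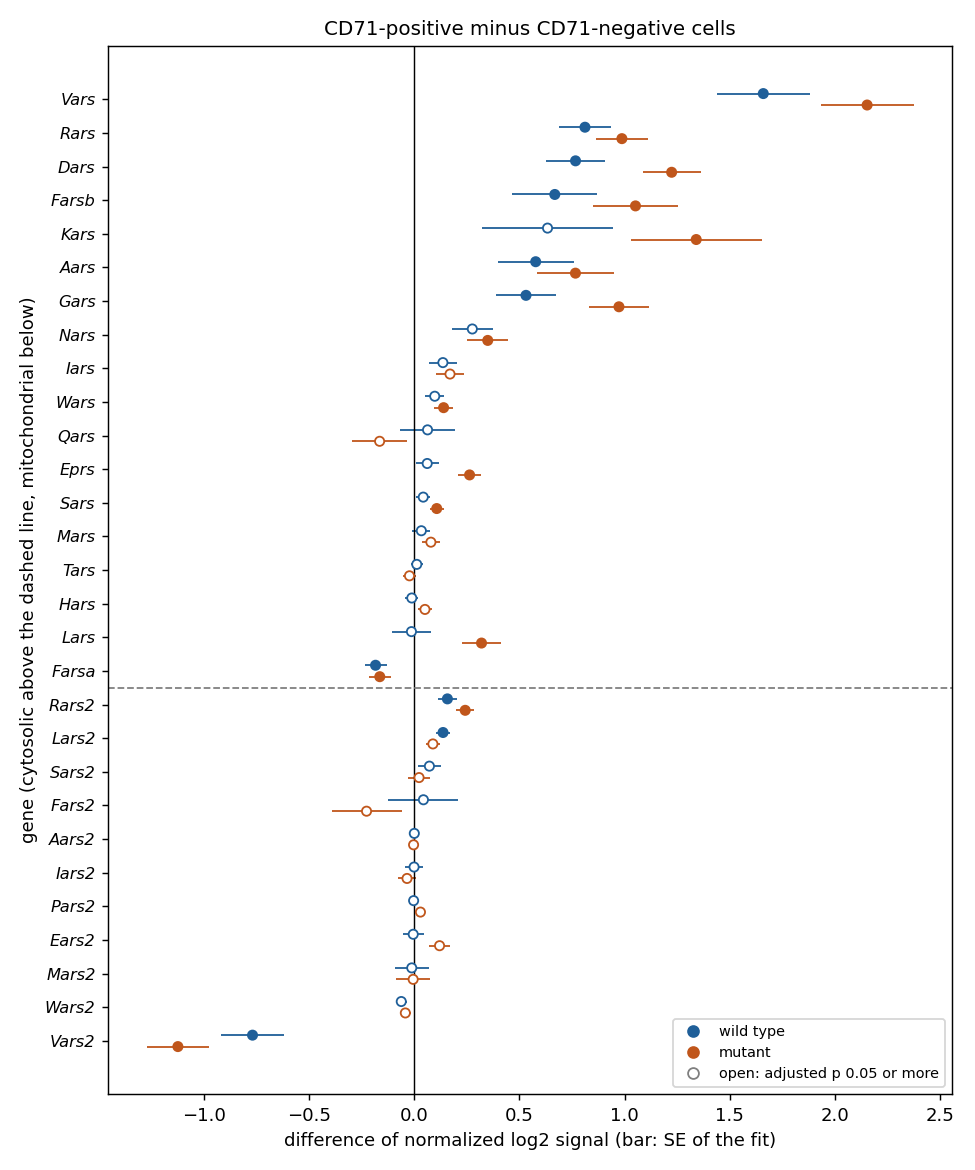
Difference of normalized log2 signal between CD71-positive and CD71-negative cells for the 29 tested synthetase genes (points; bars are the SE of the fit), with wild type in blue and mutants in orange, filled where the adjusted p was under 0.05 and open otherwise. Cytosolic genes stand above the dashed line and spread from -0.18 for Farsa to 2.15 for Vars, and mitochondrial genes lie between -0.23 and 0.24 apart from Vars2.

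These counts moved with single arrays. In wild type the cytosolic count of 7 was 4 when any CD71-negative array or the first CD71-positive array was left out and 3 when the second CD71-positive array was, and Vars, Rars and Dars were called in each of these fits. The calls among all tested genes fell as well, to 1739, 1660 and 1925 without wild-type CD71-negative array 1, 2 or 3. Without wild-type CD71-positive array 1 or 2 they were 1521 and 1683, against 2067 in the main fit. The Aars call of wild type was kept in 2 of the 12 fits that leave out an array, those without wild-type CD71-positive array 3 or mutant CD71-positive array 1, and its adjusted p reached 0.12 in the others. Farsb lost its call when wild-type CD71-negative array 2 or 3, any array of the wild-type CD71-positive group, the second mutant CD71-negative array or the first or second CD71-positive array of mutants was left out (adjusted p up to 0.12). Gars lost it when the first or second wild-type CD71-negative array or the second CD71-positive array was left out (up to 0.08), and Farsa when CD71-negative array 1 or 3 or any CD71-positive array of wild type was (up to 0.091).

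In mutants the count of 13 was 8 when the third CD71-negative or the first CD71-positive array was left out. Both fits lost Nars, Wars, Sars, Lars and Farsa. Of all tested genes they called 1902 and 1771, against 2375 in the main fit. Nars was also lost when the second array of either mutant group was left out (adjusted p up to 0.082), and Lars when mutant CD71-negative array 1 or CD71-positive array 3 was (up to 0.095). For Wars the further arrays were the first and second mutant CD71-negative, the second mutant CD71-positive, the second wild-type CD71-negative and the first wild-type CD71-positive one (up to 0.14). For Sars they were the first mutant CD71-negative, the second mutant CD71-positive and the third wild-type CD71-positive one (up to 0.12). Farsa was lost in 9 of the 12 fits that leave out an array, and kept when wild-type CD71-negative array 2 or 3 or mutant CD71-negative array 1 was the one left out (up to 0.14).

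Inside each group, many of the cytosolic genes that rose had their highest value on the dimmest array, the one with the lowest mean signal. Of the 12 cytosolic genes that rose in mutants, 9 had their highest value of the group on the dimmest array of wild-type CD71-negative cells, 11 on that of wild-type CD71-positive cells, 8 on that of mutant CD71-negative cells and 6 on that of mutant CD71-positive cells. The share of all tested genes with their highest value there was not counted, so these counts are no result about the synthetase genes. With log2 mean signal as a covariate, 9 cytosolic genes were called in wild type and 13 in mutants, and Kars passed in wild type at 0.86 (adjusted p = 0.027). Of all tested genes, that fit called 2298 in wild type and 2684 in mutants, against 2067 and 2375 without the covariate. Myeloid and dendritic cell markers moved with CD71 as well. Of 12 tested markers of those cells, 0 were called in wild type by limma (1 at an unadjusted p under 0.05) and 7 were called higher in mutants. Of all tested genes, 12% were called higher in wild type and 14.5% in mutants. The summed level of the 17 markers in the table was 841 to 919 in wild-type CD71-negative, 1014 to 1290 in wild-type CD71-positive, 980 to 1040 in mutant CD71-negative and 1243 to 3204 in mutant CD71-positive cells, with Itgax and Lyz1 detected on no array. On the third mutant CD71-positive array, at 1243, 1 of the 12 rising cytosolic genes, Gars, had the highest level of its group and 8 had the lowest. Vars, Kars, Dars and Farsb were among the 8, at 7.48, 7.07, 8.40 and 8.79, each above its level on all mutant CD71-negative arrays. These ranks were not counted over all tested genes either. Without mutant CD71-positive array 2, at 3204 and also the dimmest of its group, 9 cytosolic genes were called in mutants, all 9 higher. Of all tested genes, that fit called 1847 in mutants, against 2375 in the main fit. The part of such cells in the cytosolic differences was not tested beyond these values. Most double-positive thymocyte markers were lower in CD71-positive cells. Of 12 tested, 10 fell in each genotype, where 13.1% of all tested genes were called lower in wild type and 14.3% in mutants. Another 1 of these markers rose in wild type, and the medians over 13 markers were -0.93 in wild type and -1.21 in mutants. Their summed level was 27950 to 30980 in wild-type CD71-negative against 14000 to 16700 in wild-type CD71-positive cells, and 26750 to 28770 against 12090 to 12690 in mutants. The part of this shift in the synthetase differences was not tested. None of 12 erythroid markers was tested, and their summed level was 505 to 513 on every array.

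The cytosolic genes differ in what their promoters hold. RefSeq promoter sequences of GRCm38.p6, from 250 bases before to 50 after the annotated start, were matched for 13 cytosolic and 12 mitochondrial genes of the table. Cars, Hars, Lars, Nars, Rars, Vars, Wars, Hars2 and Pars2 were not matched and are not in the motif counts. On either strand, 4 of the 13 cytosolic promoters held CACGTG, the E-box that Myc with Max is known to bind, 1 of the 12 mitochondrial ones (Ears2) did, and 8.09% of all 27025 promoter symbols did. The motif TGATGNAA, which Atf4 is known to bind with C/EBP proteins, was in 5 of 13 cytosolic promoters, 0 of 12 mitochondrial ones and 4.51% of all. No letters of the motifs overlap in these promoters. Stretches are shown for Aars, Farsb and Gars, which rose, and for Iars and Tars, which carry the same motifs and did not pass. They are printed in the direction of the gene, with both motifs in capitals, and lie on the plus strand at chr8:111033681-111033871 for Aars, chr6:55037956-55037993 for Gars and chr13:49682046-49682159 for Iars and on the minus strand at chr1:78488916-78488951 for Farsb and chr15:11399629-11399688 for Tars.
Aars: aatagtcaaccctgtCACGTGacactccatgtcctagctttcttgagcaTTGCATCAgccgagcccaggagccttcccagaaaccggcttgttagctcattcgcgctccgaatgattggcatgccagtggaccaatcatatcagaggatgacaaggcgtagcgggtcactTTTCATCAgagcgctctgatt
Farsb: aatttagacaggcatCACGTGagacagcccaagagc
Gars: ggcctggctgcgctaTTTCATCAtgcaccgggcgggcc
Iars: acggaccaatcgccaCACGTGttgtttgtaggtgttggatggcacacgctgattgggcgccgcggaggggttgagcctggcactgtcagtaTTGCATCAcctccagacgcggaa
Tars: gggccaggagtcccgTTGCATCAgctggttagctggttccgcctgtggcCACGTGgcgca
Aars has the E-box 146 bases before the start and the second motif both upstream and just past the start. Farsb has the E-box alone and Gars the second motif alone, close to the start. Iars and Tars have both, as Aars does. The remaining cytosolic promoter with the second motif is that of Yars, which was detected on 1 array. Dars, which rose in both genotypes, and Kars, Eprs and Sars, which rose in mutants, were matched and hold neither motif. Nor do Farsa, Mars and Qars. A link between the motifs and the CD71 difference was not tested. A match is a run of letters and was not tested as a binding site.

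Among the mitochondrial synthetase genes, Rars2 for arginine and Lars2 for leucine rose in wild type and Vars2 for valine fell. In mutants Rars2 rose and Vars2 fell. The counts were 2 of 11 tested genes higher and 1 lower in wild type and 1 of 11 each way in mutants, close to the 12% and 13.1% of all tested genes in wild type and the 14.5% and 14.3% in mutants, so they are no result about the class. The median over the 14 genes in the table, of which 3 were detected on no array and had differences near 0, was -0.00 in wild type and 0.00 in mutants, beside -0.01 for all tested genes in each. The distance between the cytosolic and the mitochondrial median was 0.0823 in wild type and 0.215 in mutants. On single arrays, with each gene centred, the cytosolic median level minus the mitochondrial one had an SD of 0.0564 within groups. That SD is of levels on single arrays and not of a difference between group means. The wild-type distance was 0.0354 without wild-type CD71-positive array 2, 0.13 without array 1 and 0.124 without array 3 of that group, 0.171 with the authors' values and 0.27 with the background from dim genes. The mutant distance was 0.47 with that background. Whether the classes differ was not tested, since the genes of a class are not replicates.

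Vars2 had the largest difference of the mitochondrial genes. Its level was 6.52, 6.64 and 7.16 in wild-type CD71-negative cells against 6.009, 5.998 and 6.004 in CD71-positive cells, and 6.93, 6.90 and 7.16 against 5.87, 5.75 and 6.0 in mutants. All CD71-positive arrays were below all CD71-negative ones, at -0.77 ± 0.15 for wild type (1.71-fold lower, adjusted p = 0.0047) and -1.12 ± 0.15 for mutants (2.18-fold lower, adjusted p = 0.00049). The file's symbol Vars2 is also an older name of Vars, which has an entry of its own here, and the probe sequences behind the entries were not used here.

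Rars2 rose slightly. It was at 5.50, 5.57 and 5.57 against 5.76, 5.67 and 5.69 in wild type and at 5.59, 5.60 and 5.56 against 5.92, 5.82 and 5.74 in mutants. The subsets were separate in both genotypes, at 0.16 ± 0.04 (adjusted p = 0.029) and 0.24 ± 0.04 (adjusted p = 0.0031). Lars2 was at 5.66, 5.60 and 5.67 against 5.77, 5.80 and 5.78 in wild type and at 5.58, 5.63 and 5.66 against 5.77, 5.70 and 5.67 in mutants. The wild-type difference of 0.14 ± 0.03 passed (adjusted p = 0.016), and the mutant one of 0.09 ± 0.03 did not (adjusted p = 0.081), while the difference between the genotypes was -0.05 ± 0.05 (adjusted p = 0.95).

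The other 8 tested mitochondrial genes, Aars2, Ears2, Fars2, Iars2, Mars2, Pars2, Sars2 and Wars2, passed in neither genotype. Their differences ran from -0.06 (Wars2) to 0.07 (Sars2) in wild type and from -0.23 (Fars2) to 0.12 (Ears2) in mutants. Of these, Fars2 for phenylalanine had the widest spread, from 7.43 to 8.11, with arrays of all groups overlapping. Without wild-type CD71-negative array 2 the mitochondrial count of wild type fell from 3 to 1, which was Vars2. The calls among all tested genes fell from 2067 to 1660 in that fit. The Rars2 call of wild type was also lost without CD71-negative array 1 or CD71-positive array 1 or 3 (adjusted p up to 0.1), and that of Lars2 without CD71-positive array 2 (up to 0.06).

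Cytosolic genes were then set beside the mitochondrial gene for the same amino acid. Of 15 such pairs, which use Eprs and Fars2 more than once, the cytosolic difference was the larger in 11 in wild type and in 14 in mutants. It was larger by more than 0.5 in 4 pairs of each genotype. In 3 of the pairs, for histidine, asparagine and tyrosine, the mitochondrial gene was detected on no array, so its difference measures no level, and Yars was not tested either. Of the 12 pairs with both genes tested, the cytosolic difference was the larger in 9 in wild type and in 12 in mutants. The mutant count includes Farsa with Fars2, where both differences were below 0 (-0.16 and -0.23). It also includes small gaps, such as 0.08 for Sars with Sars2 and for Mars with Mars2. Valine had the widest gap, since Vars rose and Vars2 fell, at 2.43 in wild type and 3.28 in mutants. The other 3 pairs were Aars with Aars2 (gaps of 0.58 and 0.77), Farsb with Fars2 (0.62 and 1.28) and Rars with Rars2 (0.65 and 0.75), where the cytosolic gene rose and, apart from Rars2, the mitochondrial one did not pass. Lars with Lars2 had the reverse order in wild type (-0.15) and not in mutants (0.23). Pairs were not tested, and differences of separate probes depend on how far each probe lies above background.

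**Figure D4:**
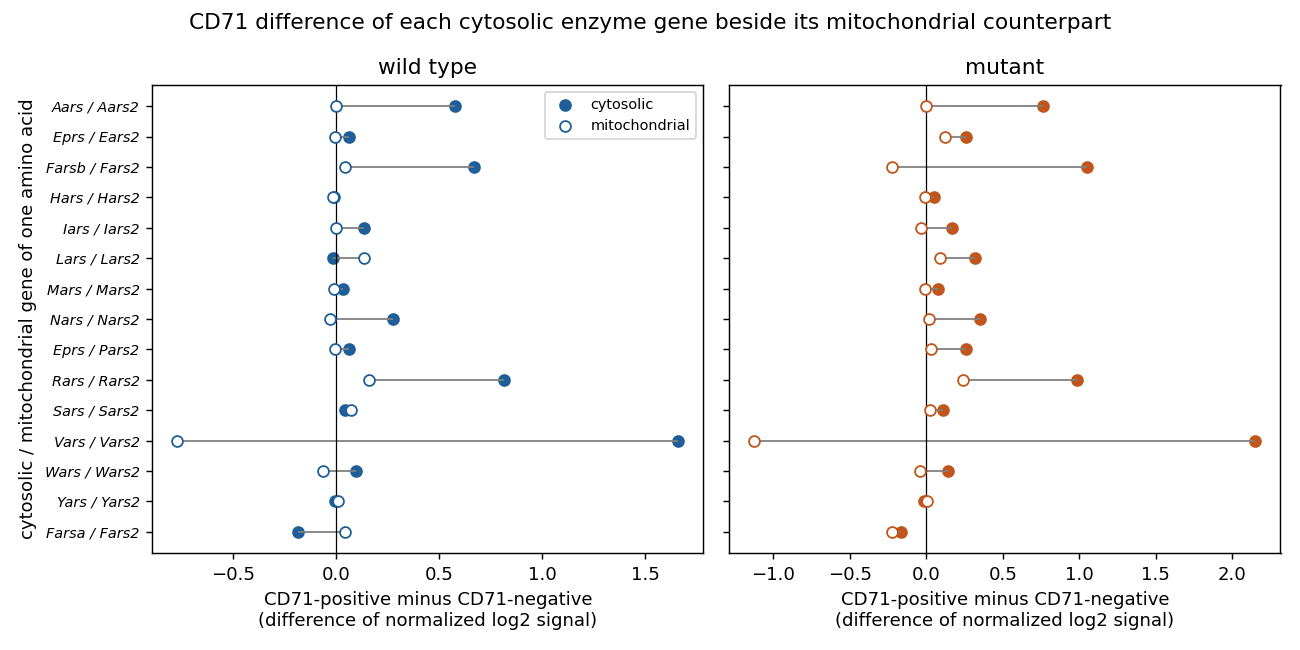
Difference of normalized log2 signal between CD71-positive and CD71-negative cells for each cytosolic gene (filled) and the mitochondrial gene for the same amino acid (open), joined by a line, in wild type (left) and mutants (right), each panel with its own axis range. The cytosolic point lies to the right in 11 of 15 pairs in wild type and in 14 in mutants, with the longest line for Vars and Vars2.

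Cytosolic enzymes fall into structurally unrelated classes, class I and class II. In wild type 2 of 8 tested class I genes rose, Vars and Rars. Of 10 class II genes, Dars, Farsb, Aars and Gars rose and Farsa fell. In mutants 5 class I genes and 7 class II genes rose. Over all tested genes 12% were called higher in wild type and 14.5% in mutants, and a difference between the enzyme classes was not tested. Of the 8 enzymes of the multi-synthetase complex, 2 rose in wild type (Rars and Dars) and 5 in mutants (with Kars, Lars and Eprs), while Iars, Mars and Qars passed in neither. The 3 scaffold genes rose in wild type. Aimp1, listed as Scye1, was higher by 0.54 ± 0.15 (adjusted p = 0.032), Aimp2, listed as Jtv1, by 0.49 ± 0.10 (adjusted p = 0.0075) and Eef1e1 by 0.31 ± 0.09 (adjusted p = 0.04). In mutants Jtv1 and Eef1e1 rose by 0.43 and 0.51, and Scye1 did not pass at 0.46 (adjusted p = 0.051).

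Among other genes of transfer RNA supply, Maf1, Brf1 and Dus4l changed in both genotypes. Of 29 tested genes of transfer RNA processing, modification, export and transcription, 4 rose and 4 fell in wild type, and 6 rose and 2 fell in mutants, with medians of 0.01 and 0.02 over the 39 genes in the table. The wild-type shares are close to the 12% higher and 13.1% lower among all tested genes, and in mutants the background was 14.5% and 14.3%. Maf1, which represses RNA polymerase III, fell, with levels of 10.81, 10.91 and 10.69 in wild-type CD71-negative cells against 9.41, 9.27 and 9.65 in CD71-positive cells. The arrays were far apart, and the difference was -1.36 ± 0.13 (adjusted p = 8.6e-05). In mutants Maf1 differed by -1.30 ± 0.13 (adjusted p = 9.3e-05). Brf1, a subunit of the polymerase III initiation factor, also fell, at -0.93 and -0.88, while Dus4l, a dihydrouridine synthase gene, rose by 0.43 and 0.72. Pus3, a pseudouridine synthase gene, fell in wild type (-0.89, adjusted p = 0.011) and did not pass in mutants (-0.34), as with the polymerase III subunit gene Polr3b (-0.29 and 0.01), and neither gene was called for a difference between genotypes (adjusted p = 0.92 and 0.67). Qrsl1, which encodes a subunit of the amidotransferase that makes glutaminyl-tRNA in mitochondria, was the 1 gene of 3 tested in the mitochondrial charging list to pass, at 0.64 in mutants (adjusted p = 0.019), while the wild-type value of 0.50 did not (adjusted p = 0.057) and the difference between genotypes was 0.14 ± 0.24 (adjusted p = 0.97).

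Of the amino acid response genes, Psat1 rose most, and the transporter genes Slc38a2 and Slc7a11 fell. Of 18 tested, 4 rose and 2 fell in wild type and 5 rose and 2 fell in mutants, with medians of -0.00 and 0.00 over 29 genes, where 12% and 13.1% of all tested genes were called higher and lower in wild type and 14.5% and 14.3% in mutants. Psat1, the phosphoserine aminotransferase of serine synthesis, was at 5.67, 5.77 and 5.66 against 8.17, 7.86 and 7.42 in wild type, without overlap, and was higher by 2.11 ± 0.19 (adjusted p = 5.8e-05) and in mutants by 2.26 ± 0.19 (adjusted p = 3.5e-05). Phgdh of serine synthesis and the one-carbon enzyme genes Shmt2 and Mthfd2 rose by 0.18 to 0.21 in wild type and by 0.22 to 0.45 in mutants. Aldh18a1, an enzyme gene of proline synthesis named as the remaining rise in mutants after its values were seen, rose there by 0.45 (adjusted p = 0.019) and did not pass in wild type (0.18, adjusted p = 0.32). The amino acid transporter genes Slc38a2 and Slc7a11, which Atf4 is known to induce, fell at -1.32 and -1.01 in wild type and -1.59 and -0.94 in mutants. Among 7 tested genes of the Myc and Max family, Mxd3, a Max partner, rose by 0.50 and 0.25, and Max itself did not pass (-0.09 and 0.03). Between genotypes, limma called 1 of the 7 lower in mutants in CD71-positive cells (adjusted p = 0.025) and 1 on the average of both subsets (adjusted p = 0.045). Of all tested genes, 0.424% and 0.909% were called there in either direction. A genotype difference in the CD71 effect was called for 0 of the 7 (smallest adjusted p = 0.31). Myc was not among the tested genes.

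Over the 4 group means, the genes outside these lists whose pattern lay closest to the mean of the 6 cytosolic genes called higher in both genotypes were Psmd7, Phb2, LOC100047490, Rnps1 and Taf15, at Euclidean distances of 0.0995 to 0.123 after each gene was centred. The mean of the 6 synthetase genes was 0.84 higher in CD71-positive cells of wild type and 1.19 higher in mutants. Psmd7, which encodes a proteasome subunit, differed by 0.97 and 1.19. With 4 points, this likeness describes a shape and carries no test.

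No synthetase gene passed the test between genotypes. By limma, 0 of 29 were called between mutant and wild-type cells in CD71-negative cells, in CD71-positive cells or on the average of both, where 0.424%, 0.424% and 0.909% of all tested genes were called. At an unadjusted p under 0.05 there were 2, 4 and 3. The cytosolic medians over 20 genes were -0.01 among CD71-negative and 0.07 among CD71-positive cells, and over the 14 mitochondrial genes they were -0.00 in each. Above 0 lay 7 of the 20 cytosolic differences among CD71-negative cells and 16 among CD71-positive cells. Of all 8247 tested genes, 4078 and 3866 lay above 0.

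In CD71-negative cells the smallest p-values belonged to Dars, Gars and Pars2. The highest mutant Dars array lay at the level of the lowest wild-type array, 7.60, at a difference of -0.39 ± 0.14 (adjusted p = 0.32). All 3 Gars arrays of mutants, at 9.87 to 9.93, were below the wild-type range of 9.95 to 10.55, at -0.35 ± 0.14 (adjusted p = 0.43). Pars2, for proline, was at 5.50, 5.48 and 5.44 in wild type and 5.42, 5.43 and 5.44 in mutants, at -0.04 ± 0.02 (adjusted p = 0.56). These levels sit close to background.

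In CD71-positive cells the smallest p-values belonged to Lars, Sars and Rars2, as they did on the average of the subsets. Lars was at 5.88, 5.86 and 5.77 in wild type and 6.33, 5.97 and 6.29 in mutants. All mutant arrays were higher, with the second closest to wild type, at a difference of 0.36 ± 0.09 (adjusted p = 0.2). Sars was at 5.53, 5.60 and 5.55 in wild type and 5.66, 5.71 and 5.61 in mutants, at 0.10 ± 0.03 (adjusted p = 0.34). The Rars2 difference was 0.12 ± 0.04 (adjusted p = 0.42). Without mutant CD71-positive array 2 Lars was called, without wild-type CD71-positive array 2 Vars was called, and with array weights Lars was called, so these 0 counts each became 1. The plot of genotype differences shows the remaining members.

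**Figure D5:**
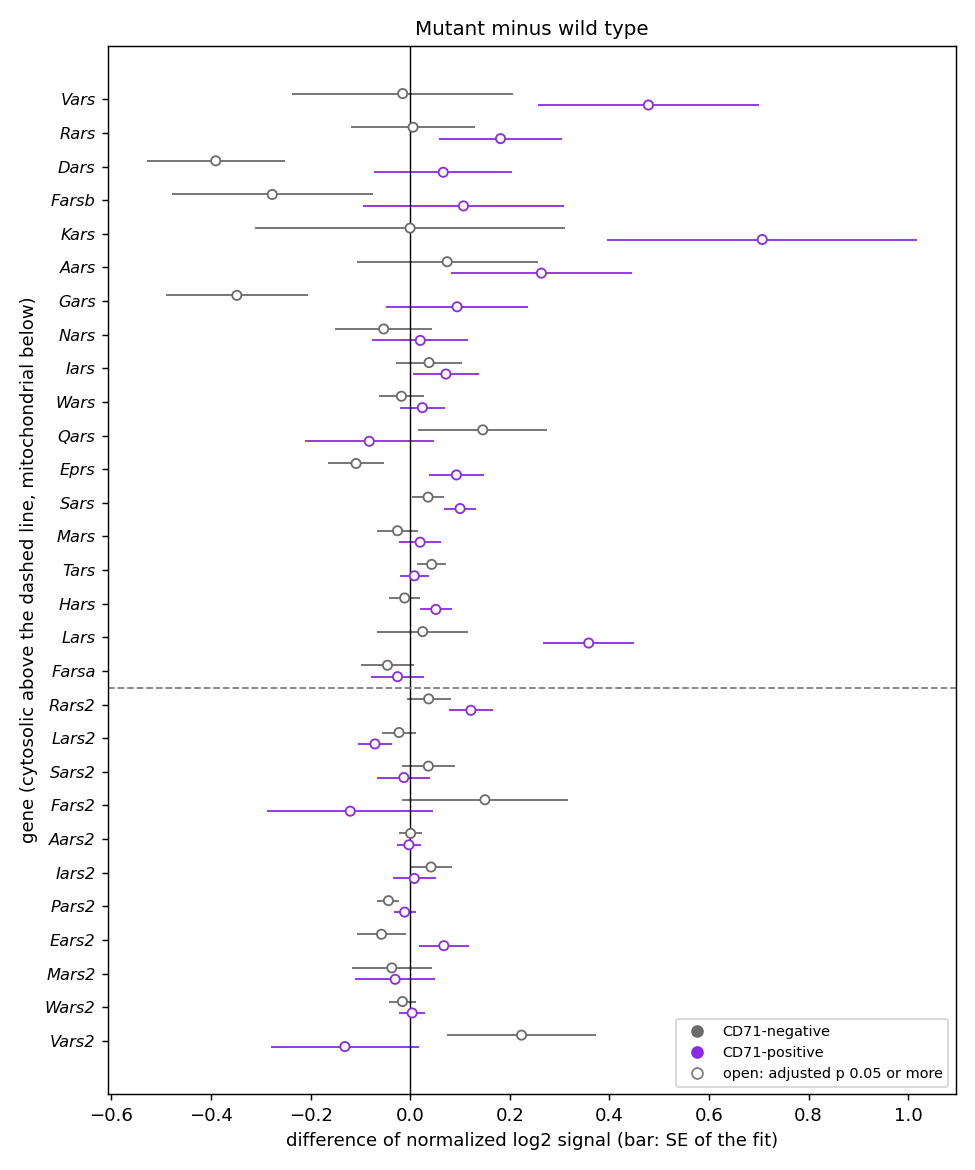
Mutant minus wild-type difference of normalized log2 signal for the 29 tested synthetase genes (points; bars are the SE of the fit) in CD71-negative (grey) and CD71-positive (purple) cells, all open because no adjusted p was under 0.05. Most points lie within 0.2 of 0, with Kars (0.71), Vars (0.48) and Lars (0.36) to the right in CD71-positive cells and Dars (-0.39) and Gars (-0.35) to the left in CD71-negative cells.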

How the data were processed

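RNA of 12 samples was measured on 1-colour arrays after biotin labelling, per the labels' protocols. Per the file headers, the deposited table holds, for each gene symbol and array, a signal intensity on a linear scale and a p-value of detection. The genome build and the way probes were combined are not given in the sources used here. As an alternative, the authors' processed intensity table was used, made with RMA according to the submitters' processing notes. It holds 18132 symbols, ranks genes as the signal does, is on a linear scale and has column medians of 77.2 to 78.7, with its background step unknown.

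Signals were normalized by neqc in limma 3.58.1 (R 4.3.3), with background inferred from detection p-values, an offset of 16, quantile normalization and log2. The 8247 genes that 3 or more arrays detected at p under 0.05 were tested. A single fit of 4 group means with eBayes gave 6 contrasts, two-sided, with Benjamini-Hochberg adjustment over all tested genes of a contrast. Errors are SE of the fit unless marked. The fit was tested on simulated data. Columns were matched to samples by name, and no arrays held identical values.

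Members, gene lists and tests were chosen with earlier results of these data known. Values on every array are given for up to 6 cytosolic and up to 4 mitochondrial genes with the largest called CD71 differences in each genotype (3 mitochondrial genes were called in wild type and 2 in mutants), the 3 smallest p-values of each genotype contrast, Wars and genes moving against their class. Of other lists, up to 6 genes with the smallest p in wild type were eligible, and some results are not reported here. Alternatives covered background, normalization, the filter, the variance model, array weights, the groups fitted, a replicate block and each array left out. A background from dim genes and brightness as a covariate were added after seeing the data. Promoters come from a table of RefSeq sequences, and genes without a match in that table were not used for motifs.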

Additional observations from a re-analysis of the deposited data

How the results depend on the processing

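Over 23 alternatives, Dars, Rars, Vars and Vars2 stayed past the threshold in wild type, as did Aars, Dars, Eprs, Farsb, Gars, Kars, Rars, Rars2, Vars and Vars2 in mutants. No named difference past the threshold changed sign. The cytosolic count of wild type was 4 with no filter, 3 with only the compared groups fitted and 3 to 6 with an array left out, against 7. The fit with no filter called 1774 of all genes in wild type. That with only the compared groups called 1529, against 2067 in the main fit. In mutants it was 8 to 13 with an array left out, against 13. The mitochondrial count was 1 to 3 in wild type with an array left out. For mutants it was 6 with array weights and 2 to 3 with an array left out, against 2. The fit with array weights also called 4358 of all tested genes in mutants, against 2375 in the main fit. The count of 6 is therefore no result about the mitochondrial class. Genotype calls were 1 (Lars) with array weights in CD71-positive cells and on the average, and 0 to 1 in CD71-positive cells with an array left out.

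The gap between the class medians in wild type was 0.171 with the authors' values, 0.27 with the background from dim genes and 0.0354 to 0.13 with an array left out. In mutants it was 0.312, 0.47 and 0.196 to 0.236. The cause was not tested for any of these shifts. With the background from dim genes Farsa differed by -0.73 in each genotype, Rars2 by 0.52 and 0.64, Eprs by 0.66 in mutants and Vars by 2.21 and 2.67. That background and the brightness covariate were chosen after seeing the data.

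With the replicate number as a replicate block the counts were 7 and 3 in wild type, 13 and 2 in mutants and 0 in each genotype contrast, as without it. Deviations of same-numbered arrays correlated at -0.41 to 0.59 (mean 0.13, 18 pairs of arrays, 11 over 0.1). Those of other-numbered arrays of different groups correlated at -0.61 to 0.5 (mean -0.07, 36 pairs, 14 over 0.1). The replicate numbers are those of the sample descriptions. The sample titles instead continue the numbering from the CD71-negative to the CD71-positive samples of a genotype. Whether the numbers pair the samples was not settled by these values, and the main fit took the samples as unpaired. Dim members, near background, are limited by signal.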

Other observations

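Dars, with levels of 7.03 to 8.60, was detected on 11 of 12 arrays and missed on 1 mutant CD71-negative array, although members that no array detected had levels of 5.33 to 5.43. Mars, at 5.45 to 5.62, was detected on all 12 arrays.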
